A study of Homo sapiens with 12 samples.

Results

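ZNF165 was overexpressed in MKN45, an established line of human gastric cancer cells, and gene expression was measured by RNA-seq. The experiment takes up 6 of the 12 libraries of the study: 3 from MKN45 cells given a control lentivirus (genotype WT in the labels) and 3 from MKN45 cells given a lentivirus for ZNF165 (genotype ZNF165 Overexpression). All 6 libraries come from lentivirus-treated cells, so the control carries the vector treatment too, and neither the promoter of the construct, the time after transduction nor whether the cells are 1 clone is given in the sources used here. The other 6 libraries are a ZNF165 knockdown and its control in a second gastric line, MKN28. Nothing in the labels tells if the replicates of a group are independent cultures, so a p-value here is set against a spread among libraries that could be technical only. Levels are in CPM, read counts scaled to a common library total with TMM factors, and the 3 values of a group are always given in the order of replicates 1, 2 and 3.

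ZNF165 belongs to the zinc-finger proteins with a SCAN domain, a module through which such proteins pair with each other. It is classed as a cancer/testis antigen, a protein made mainly in the testis among healthy tissues and again in some tumours. Several groups of genes recur below. Immediate early genes are switched on within minutes of a growth or stress signal, without new protein synthesis, and many encode transcription factors. Heat shock genes encode chaperones that refold damaged proteins and are driven by the factor HSF1. SR proteins bind pre-mRNA and steer its splicing.

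The epithelial identity of the libraries was checked first. Of 12 markers of gastric carcinoma epithelium, 11 were expressed and tested, among them EPCAM, an epithelial adhesion molecule, at 933, 751 and 886 CPM in the controls and 744, 682 and 778 CPM with overexpression. Of the leukocyte markers PTPRC, CD2, MS4A1, TYROBP and NKG7 had no count in any of the 6 libraries. Their whole list of 13 summed to 136, 133 and 106 CPM in the controls and 235, 158 and 238 CPM with overexpression, nearly all of it LYZ, a lysozyme gene that gastric epithelium also expresses (adjusted p = 0.0997). Among fibroblast markers THY1 had no count and COL1A2, COL3A1, DCN, LUM, POSTN and FAP were at or below 0.440 CPM, while COL1A1 and ACTA2 supplied most of a sum of 34.8, 39.7 and 35.9 CPM in the controls and 29.4, 36.9 and 31.4 CPM with overexpression over 11 genes. Endothelial PECAM1, CDH5, KDR, TEK and CLDN5 were at or below 0.254 CPM, and EGFL7 supplied most of the sum of 84.9, 144 and 99.8 CPM in the controls and 52.6, 60.5 and 49.8 CPM with overexpression over 7 genes (EGFL7, adjusted p = 0.0668). In bulk RNA, fewer cells of a type and less RNA per cell cannot be told apart.

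Control replicate 2 stood apart from the other libraries. Totals ran from 15333499 counts in that library to 19548445 in overexpression replicate 2. A count of 0 allows a level of up to 0.153 to 0.196 CPM before TMM scaling, depending on the library, if 3 counts are taken as its upper limit (counting error only). On the scaled levels given here the limit is higher than that in control replicate 2, whose TMM factor was 0.885. Across genes, the Pearson correlation of log2 CPM was 0.972 between control replicates 1 and 3, 0.933 and 0.940 between control replicate 2 and those libraries, and 0.977 to 0.983 among the overexpression libraries. Of 8047 genes with a symbol and at least 20 CPM on average, 1691 lay 2-fold or more from the mean of the group mates in control replicate 2, with 210 above and 1481 below. The same number was 335 in control replicate 1, 182 in control replicate 3 and 72 to 130 in the overexpression libraries.

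The genes that were highest in control replicate 2 against its group mates were mostly heat shock genes. HSPA1A, an inducible cytosolic chaperone of the HSP70 family, stood at 9.66, 1328 and 41.4 CPM in the controls and 40.4, 35.4 and 69.7 CPM with overexpression. HSPA6, another inducible HSP70, stood at 10.8, 284 and 6.42 CPM in the controls and 0.71, 6.06 and 8.05 CPM with overexpression. DNAJB1, a co-chaperone of HSP70, stood at 109, 989 and 113 CPM in the controls and 122, 75.4 and 111 CPM with overexpression. In each of these genes 1 control library lay above all the others, and the other controls overlapped the overexpression libraries. HSPA1B, a near-identical neighbour of HSPA1A whose reads the counting may share with it, stood at 101, 1158 and 88.0 CPM in the controls and 90.1, 66.7 and 78.5 CPM with overexpression, and HSPB1, a small heat shock protein, at 51.9, 251 and 50.9 CPM in the controls and 42.6, 38.5 and 41.0 CPM with overexpression. JUN, a subunit of the AP-1 transcription factor, and MYD88, an adaptor of innate immune receptors, were also among the 8 highest. In these, unlike in the chaperones, the overexpression libraries also lay more than 2-fold above the other controls: JUN stood at 89.7, 417 and 96.6 CPM in the controls and 332, 303 and 374 CPM with overexpression, and MYD88 at 12.7, 46.5 and 10.7 CPM in the controls and 43.5, 41.1 and 34.0 CPM with overexpression. The remaining gene of the 8, the read-through transcript SENP3-EIF4A1, varied in both groups.

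**Figure D1:**
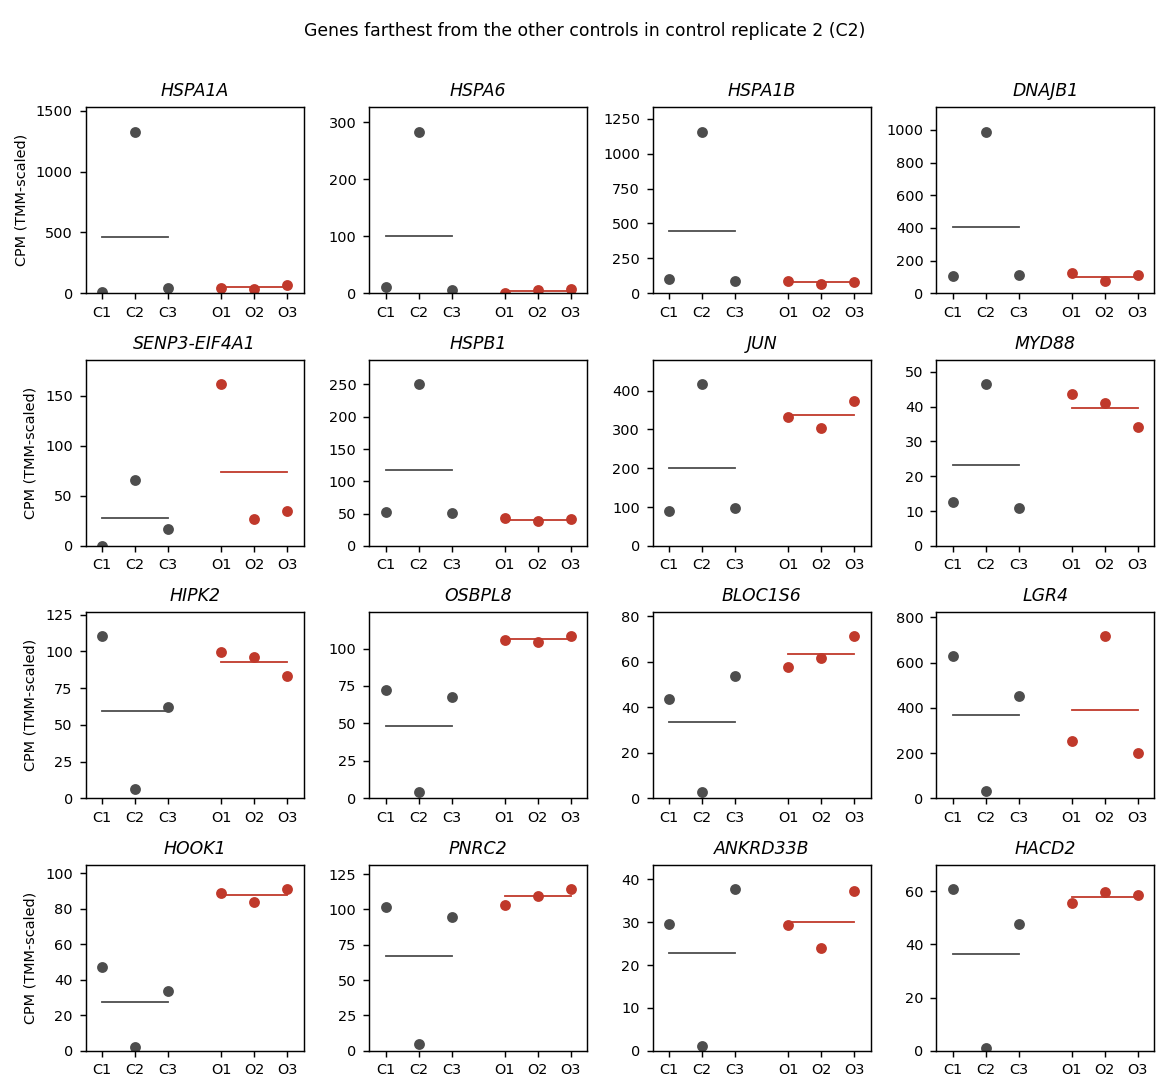
Levels in CPM of the 16 genes farthest from the other controls in control replicate 2, on linear axes from 0, for controls (C1 to C3, grey) and overexpression libraries (O1 to O3, red), with lines at the group means. HSPA1A reached 1328 CPM in C2 against 9.66 and 41.4 CPM in the other controls, and HACD2 fell to 0.957 CPM there.

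Sequence upstream of the start of HSPA1A and HSPA6 is shown because these genes mark that library. It is taken from RefSeq promoters on GRCh38.p14, plus strand, covering the 250 bases before the transcript start (chr6:31815293-31815542 for HSPA1A and chr1:161524290-161524539 for HSPA6). Capitals mark 8-base matches to GAANNTTC, an inverted pair of the 3-base units of a heat shock element, which reads the same on both strands, and in HSPA6 also 7-base matches to TGACTCA, the AP-1 site, read on either strand. The matches do not overlap each other.
HSPA1A: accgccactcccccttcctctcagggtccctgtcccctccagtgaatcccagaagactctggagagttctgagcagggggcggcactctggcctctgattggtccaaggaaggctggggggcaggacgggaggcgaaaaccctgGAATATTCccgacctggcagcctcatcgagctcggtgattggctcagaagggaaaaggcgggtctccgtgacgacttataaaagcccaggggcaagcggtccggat
HSPA6: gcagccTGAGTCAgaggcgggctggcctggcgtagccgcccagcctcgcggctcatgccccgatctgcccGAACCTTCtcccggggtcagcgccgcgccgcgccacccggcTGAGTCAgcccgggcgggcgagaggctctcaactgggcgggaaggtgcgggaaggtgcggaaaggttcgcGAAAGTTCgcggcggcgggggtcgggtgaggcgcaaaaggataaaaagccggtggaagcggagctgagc
GAANNTTC was found in 5.78% of 35116 promoters of the same length, and in 10 of 25 promoters from the list of heat shock chaperones. Counted by gene, it was found in 10 of the 16 heat shock chaperone genes with a promoter in the table. TGACTCA was found in 4.20% of all promoters. A match is a description of the sequence and not evidence of binding.

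The genes lowest in control replicate 2 were HACD2, an enzyme of long-chain fatty acid synthesis (60.9, 0.957 and 47.7 CPM in the controls and 55.8, 59.8 and 58.5 CPM with overexpression), HOOK1, a microtubule linker of vesicles (47.2, 2.21 and 33.4 CPM in the controls and 88.8, 83.8 and 91.1 CPM with overexpression), OSBPL8, a lipid-transfer protein (72.3, 4.12 and 67.6 CPM in the controls and 106, 105 and 108 CPM with overexpression), and ANKRD33B, PNRC2, LGR4, BLOC1S6 and HIPK2. In HACD2 the overexpression libraries matched the other controls, whereas in HOOK1 and OSBPL8 they lay above all 3 controls. Spearman's rho between level and transcript length across genes was 0.116 in control replicate 2, 0.213 and 0.264 in the other controls and 0.311 to 0.320 in the overexpression libraries. With GC content it was 0.192, -0.020 and -0.043, and -0.101 to -0.069. The part that this library's composition plays in the results below was not tested, and counts are therefore also given without it.

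The labels were checked on ZNF165 itself (ENSG00000197279, chromosome 6, 28080975 to 28089563, plus strand, GENCODE 29 on GRCh38). It stood at 8.71, 10.3 and 17.6 CPM in the controls and 107, 96.6 and 107 CPM with overexpression, and the groups did not overlap. The level was 8.50-fold higher, log2 fold change 3.09, SE 0.31, adjusted p = 0.0109 (edgeR quasi-likelihood test, Benjamini-Hochberg over all genes). An exact two-sided permutation test of the 6 libraries gave p = 0.1, the smallest that 20 splits of 3 against 3 allow. It passed in 13 of 15 other fits. Without overexpression replicate 1 or 2 it did not, with an adjusted p of up to 0.0707. The table has 1 row for the gene, so transcripts of the construct and of the cells' own gene cannot be told apart. The SCAN and zinc-finger neighbours of ZNF165 on 6p22 did not pass the test (0 of 15 tested with edgeR, 3 with an unadjusted p under 0.05, 1 with DESeq2; median log2 fold change 0.04). ZKSCAN8, one of them, stood at 33.5, 1.55 and 13.9 CPM in the controls and 43.3, 50.6 and 44.0 CPM with overexpression, with control replicate 2 far below the other controls. Of 12 cancer/testis antigens tested, ZNF165 was the 1 that passed (with DESeq2, 3 were higher). Beside both lists, 1.13% of all genes passed with edgeR and 6.56% were higher with DESeq2. An unadjusted p under 0.05 was found in 4242 of all 15833 genes tested. MAGEA3, an antigen of the MAGE family, stood at 27.0, 37.4 and 20.9 CPM in the controls and 46.8, 29.6 and 31.7 CPM with overexpression, and PRAME, another widely expressed antigen of tumours, at 37.1, 50.01 and 36.5 CPM in the controls and 44.4, 36.0 and 33.0 CPM with overexpression, with overlapping groups in both.

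The comparison of all genes asks which transcripts differ in MKN45 cells with more ZNF165. Of 15833 genes tested, 179 passed an adjusted p of 0.05 (1.13%), and rises outnumbered falls: 148 were higher with overexpression (0.935%) and 31 lower (0.196%), so that 82.7% of the calls were higher. Each of the 179 changed at least 2-fold, and in each the groups did not overlap. Groups were apart in 6037 of all genes tested (38.1%), and 4242 genes had an unadjusted p under 0.05. The median log2 fold change of all genes tested was -0.0022, and 0.10 with library totals in place of TMM factors.

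**Figure D2:**
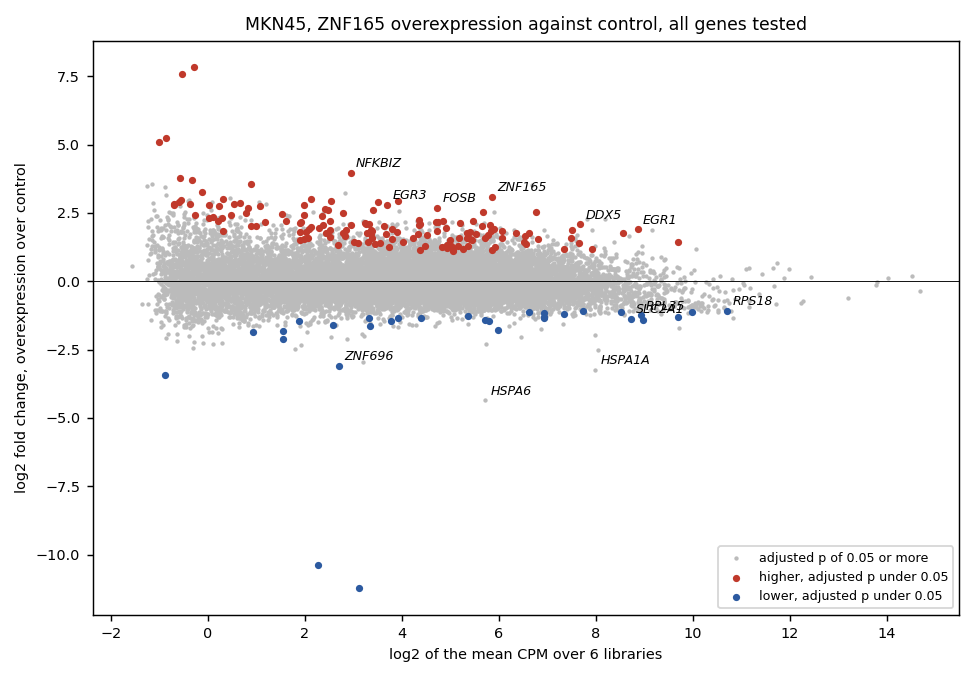
Fitted log2 fold change (overexpression over control) against the log2 of the mean CPM over the 6 libraries for 15833 genes. Red points are the 148 genes called higher, blue points the 31 called lower and grey points the rest; HSPA1A and HSPA6 lie far below 0 without a call.

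The number of calls moved strongly with single libraries. Without control replicate 2 there were 1338 calls, or 8.26% of 16196 genes (832 or 5.14% higher, 506 or 3.12% lower), and all 179 genes were among them. Without control replicate 1 there were 591, without control replicate 3 only 6, and without overexpression replicates 1, 2 and 3 there were 1, 1 and 12. When a trend with transcript length and GC content was removed from each library, 1263 genes passed (7.98%; 3.95% higher and 4.03% lower), and 165 of the 179 were among them. With DESeq2, 1834 genes passed (11.6%; 6.56% higher and 5.03% lower). Of the 47 genes named by rule that passed, 1 passed in all 6 fits with a library left out, NFKBIZ, and all 47 passed without control replicate 2.

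**Figure D3:**
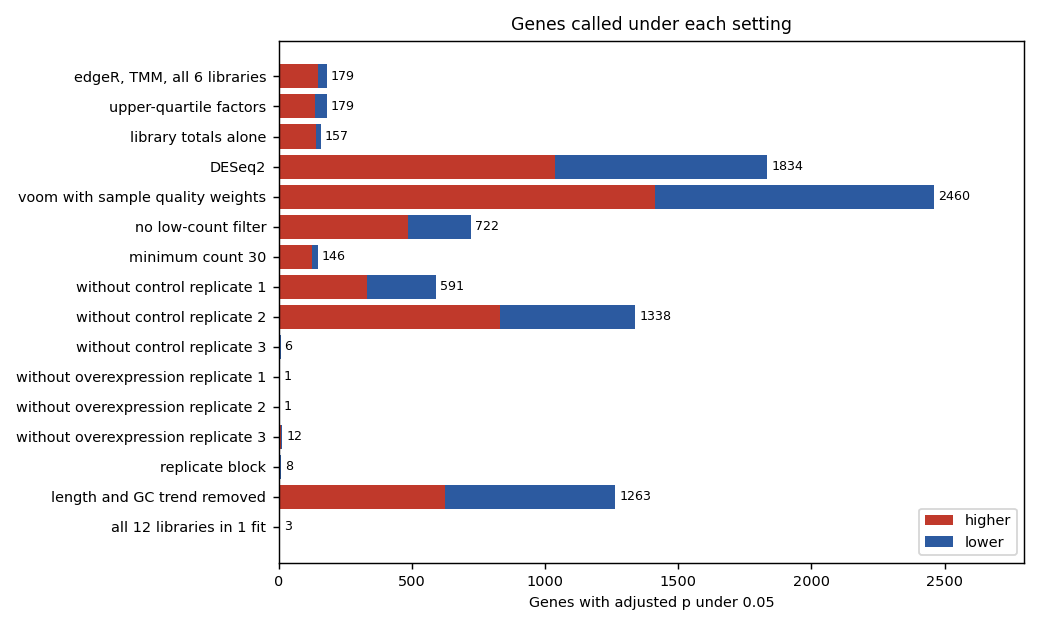
Number of genes with an adjusted p under 0.05 in each fit, on a linear axis from 0, split into higher (red) and lower (blue); the number beside each bar is the total. The bar is 179 with all 6 libraries, 1338 without control replicate 2 and 6 or fewer without control replicate 3 or without overexpression replicate 1 or 2.

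NFKBIZ (ENSG00000144802, chromosome 3), which encodes an atypical nuclear IkB protein that acts with NF-kB on a subset of its target genes, had the smallest adjusted p of all genes. It stood at 0.893, 0.957 and 0.891 CPM in the controls and 11.2, 15.9 and 16.1 CPM with overexpression. The controls were nearly equal, and every overexpression library was more than 10-fold above them. The level was 15.77-fold higher, log2 fold change 3.97, SE 0.30, adjusted p = 0.00437, and the gene passed in all 15 other fits. Of 20 NF-kB targets tested with edgeR and all 6 libraries, NFKBIZ was the 1 that passed (1.13% of all genes passed). The median log2 fold change of the list was 0.17, with 13 members positive and 7 negative. An unadjusted p under 0.05 was found in 11 (4242 of 15833 over all genes). With DESeq2, 3 were higher and 2 lower (6.56% and 5.03% of all genes). Without control replicate 2, 4 rose and 1 fell with edgeR (5.14% and 3.12% of all genes), and the median was 0.34.

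Some immediate early genes rose with overexpression. Of 33 tested members, 5 rose, 0 fell and 28 did not pass, with a median log2 fold change of 0.71 against -0.0022 over all genes. Of all genes tested, 0.935% rose and 0.196% fell. EGR1, a zinc-finger factor induced by mitogens, stood at 237, 162 and 188 CPM in the controls and 568, 834 and 794 CPM with overexpression (3.74-fold higher, log2 fold change 1.90, SE 0.24, adjusted p = 0.0202). Its relative EGR3 stood at 3.13, 3.17 and 3.37 CPM in the controls and 13.6, 22.5 and 31.4 CPM with overexpression (6.99-fold higher, log2 fold change 2.80, SE 0.34, adjusted p = 0.0186). In both the groups were clearly apart, and EGR1 was by far the more abundant. FOSB, a partner of JUN in AP-1, stood at 4.13, 10.7 and 6.68 CPM in the controls and 34.0, 55.6 and 48.0 CPM with overexpression (6.40-fold higher, log2 fold change 2.68, SE 0.37, adjusted p = 0.0207). NR4A2, an orphan nuclear receptor, stood at 2.57, 4.35 and 2.10 CPM in the controls and 14.5, 19.3 and 20.5 CPM with overexpression (6.02-fold higher, log2 fold change 2.59, SE 0.33, adjusted p = 0.0202). BTG2, an antiproliferative gene and also a p53 target, stood at 28.1, 38.3 and 21.2 CPM in the controls and 70.2, 92.4 and 149 CPM with overexpression (3.56-fold higher, log2 fold change 1.83, SE 0.34, adjusted p = 0.0446). In FOSB, NR4A2 and BTG2, too, every overexpression library lay above every control.

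Other immediate early genes showed mixed patterns, and 11 of the 33 had a negative log2 fold change. Some had separate groups but missed the threshold. EGR2 stood at 2.07, 2.36 and 1.53 CPM in the controls and 3.91, 6.89 and 7.71 CPM with overexpression, with an adjusted p of 0.0534. The zinc-finger factor KLF2 stood at 3.24, 3.61 and 3.63 CPM in the controls and 7.51, 7.48 and 13.6 CPM with overexpression, with an adjusted p of 0.0544. CCN2, a matricellular protein and a target of YAP, stood at 13.3, 22.3 and 24.6 CPM in the controls and 56.6, 74.6 and 41.6 CPM with overexpression, with an adjusted p of 0.0526. In others control replicate 2 lay among or above the overexpression libraries. ATF3, a stress-induced partner of JUN, stood at 13.2, 49.3 and 13.7 CPM in the controls and 38.1, 30.5 and 35.2 CPM with overexpression, with an adjusted p of 0.563. DUSP1, a phosphatase that switches off MAP kinases, stood at 13.6, 43.8 and 10.1 CPM in the controls and 33.3, 42.0 and 47.3 CPM with overexpression. NR4A1, the relative of NR4A2, stood at 16.5, 73.7 and 21.8 CPM in the controls and 49.1, 98.0 and 96.5 CPM with overexpression. Without control replicate 2, JUN (log2 fold change 1.85, adjusted p = 0.00545), ATF3 (1.36, 0.00926), DUSP1 (1.78, 0.00858), NR4A1 (2.08, 0.0147) and FOS (1.01, 0.0339) passed, and 14 of the list rose with 0 falling (median 1.01). In that fit 5.14% of all genes rose and 3.12% fell. On the negative side, IER3, a stress-response gene of cell survival, stood at 1377, 2852 and 1932 CPM in the controls and 1114, 1378 and 1348 CPM with overexpression (log2 fold change -0.68, adjusted p = 0.153), and DUSP4, a phosphatase of MAP kinases, at 289, 365 and 312 CPM in the controls and 209.8, 272 and 239 CPM with overexpression (-0.42, adjusted p = 0.217). DUSP4 lay below all controls in every overexpression library, while in IER3 the groups overlapped. KLF4, a zinc-finger factor of epithelial differentiation, stood at 118, 29.7 and 47.0 CPM in the controls and 61.4, 134 and 127 CPM with overexpression, with overlapping groups.

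The first 250 bases upstream of EGR1 are shown because EGR1 is the most abundant immediate early gene that rose (RefSeq, GRCh38.p14, chr5:138465229-138465478, plus strand). Capitals mark CArG boxes, the 10-base site of serum response factor, searched on both strands.
EGR1: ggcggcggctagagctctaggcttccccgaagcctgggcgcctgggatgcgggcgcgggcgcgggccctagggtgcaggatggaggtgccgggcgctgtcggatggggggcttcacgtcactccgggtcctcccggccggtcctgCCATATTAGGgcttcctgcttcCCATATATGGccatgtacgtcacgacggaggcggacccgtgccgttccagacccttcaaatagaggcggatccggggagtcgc
EGR1 holds 2 of these matches, whose first bases lie 105 and 83 bases before the start. A CArG box was found in 1.16% of 35116 promoters, and in 3 of 30 promoters of immediate early genes. Counted by gene, it was found in 3 of the 24 immediate early genes with a promoter in the table, which were EGR1, EGR2 and SRF. FOSB had none in this window. SRF itself, the factor that binds the box, stood at 105, 151 and 111 CPM in the controls and 119, 142 and 111 CPM with overexpression, and its groups overlapped.

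Of 28 p53 target genes, 3 rose and 0 fell (median log2 fold change 0.35), and without control replicate 2, 7 rose and 0 fell (median 0.21). Among all genes, 0.935% rose and 0.196% fell with all 6 libraries, and 5.14% and 3.12% without control replicate 2. PLK2, a kinase of centriole duplication and stress responses, stood at 18.2, 15.03 and 14.6 CPM in the controls and 68.0, 69.1 and 81.7 CPM with overexpression (4.58-fold higher, log2 fold change 2.19, SE 0.22, adjusted p = 0.0109). CDKN1A, which encodes the cell cycle inhibitor p21, stood at 144, 174 and 125 CPM in the controls and 336, 319.7 and 344 CPM with overexpression (2.26-fold higher, log2 fold change 1.17, SE 0.21, adjusted p = 0.0412). The third was BTG2, described above. MDM2, the negative regulator of p53, stood at 65.5, 17.9 and 46.9 CPM in the controls and 116, 148 and 119.6 CPM with overexpression and did not pass (adjusted p = 0.0758), although its groups did not overlap. GDF15, a secreted stress cytokine, stood at 624, 1969 and 949 CPM in the controls and 567, 878 and 722 CPM with overexpression with overlapping groups.

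Single genes of other signalling pathways rose. HES1, a repressor induced by Notch, stood at 32.4, 46.6 and 33.8 CPM in the controls and 115, 136 and 129 CPM with overexpression (3.37-fold higher, log2 fold change 1.75, SE 0.23, adjusted p = 0.0207). SKIL, an inhibitor of SMAD proteins, stood at 23.8, 17.2 and 23.9 CPM in the controls and 58.6, 63.5 and 65.8 CPM with overexpression (2.89-fold higher, log2 fold change 1.53, SE 0.23, adjusted p = 0.0278). The call of SKIL was lost once the length and GC trend was taken out (adjusted p = 0.146). LGR5, a Wnt target and stem cell receptor, stood at 1.79, 1.25 and 2.35 CPM in the controls and 8.07, 5.67 and 5.23 CPM with overexpression (3.52-fold higher, log2 fold change 1.81, SE 0.34, adjusted p = 0.045). With edgeR and all 6 libraries, each was the 1 member past the threshold in its list, of 15 Notch and Hippo targets, 17 TGF-beta targets and 16 Wnt targets, with list medians of -0.02, 0.14 and 0.09. With DESeq2, and also with edgeR without control replicate 2, 2 were higher and 1 lower in the first list, 3 higher and 1 lower in the second and 2 higher in the last. Shares over all genes were 0.935% higher with edgeR and all 6 libraries, and 6.56% higher and 5.03% lower with DESeq2. With edgeR without control replicate 2 they were 5.14% and 3.12%. No response of these pathways as a whole is read from these counts. EDN1, the precursor of the peptide hormone endothelin, stood at 8.77, 6.997 and 5.41 CPM in the controls and 41.2, 26.9 and 32.8 CPM with overexpression (4.77-fold higher, log2 fold change 2.25, SE 0.28, adjusted p = 0.0202). SGK1, a kinase induced by serum and glucocorticoids, stood at 5.36, 5.16 and 4.20 CPM in the controls and 29.8, 15.2 and 14.9 CPM with overexpression (4.07-fold higher, log2 fold change 2.02, SE 0.33, adjusted p = 0.0363). EDN1 and SGK1 were named after their values were seen.

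**Figure D4:**
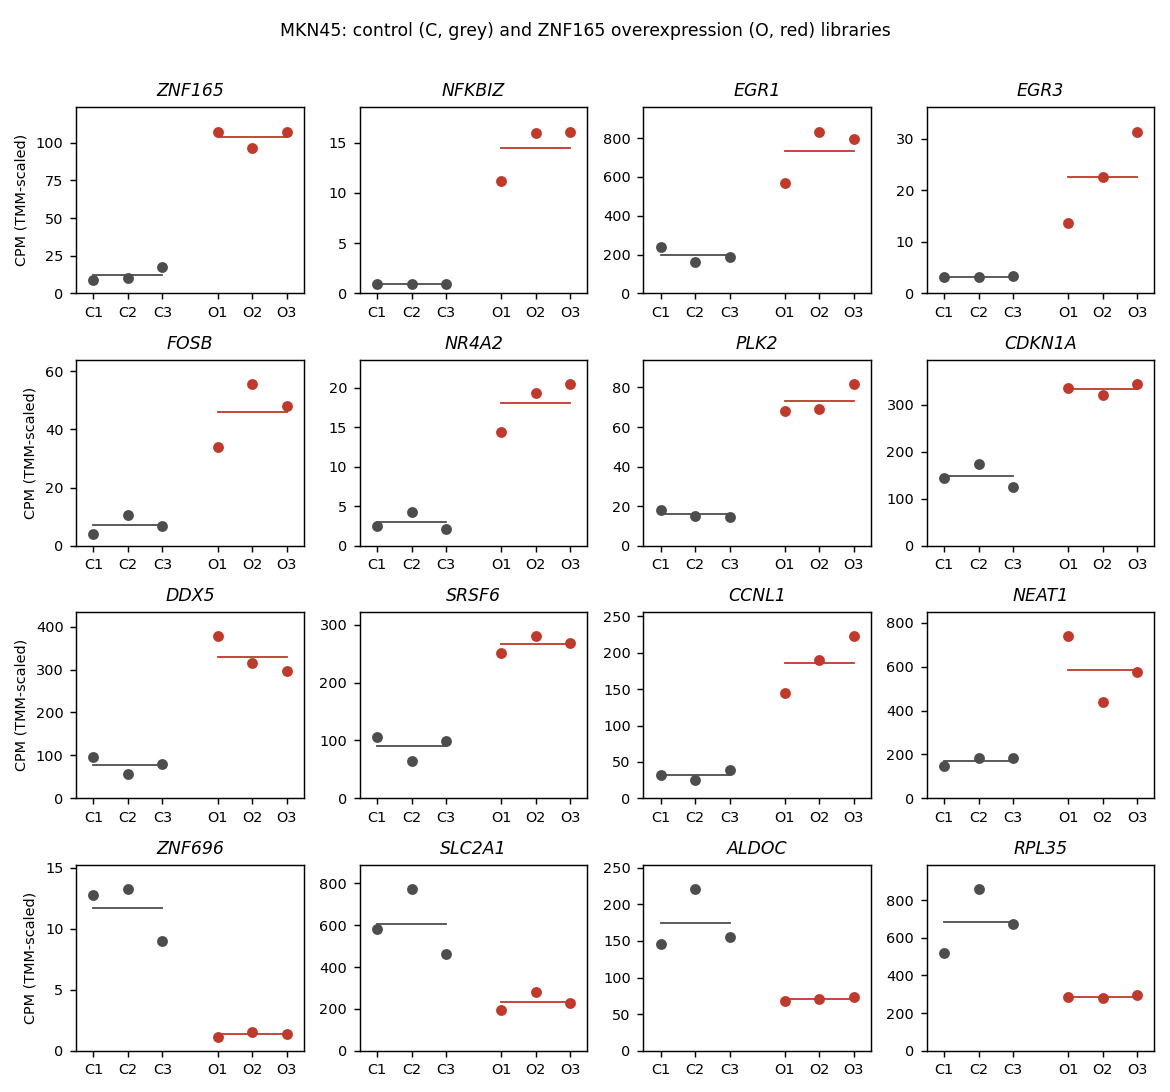
Levels in CPM of 16 genes in each control (C1 to C3, grey) and overexpression library (O1 to O3, red), on linear axes from 0, with lines at the group means. In 12 of these genes all overexpression libraries lie above all controls, and in ZNF696, SLC2A1, ALDOC and RPL35 below them.

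Several genes of pre-mRNA splicing rose. Of 23 SR proteins and splicing regulators, 4 rose and 0 fell, with a median log2 fold change of 0.94, and in 19 of 23 all overexpression libraries lay above all controls (19.4% of all genes tested did so). Among all genes, 0.935% rose and 0.196% fell in the test. DDX5, an RNA helicase and cofactor of splicing and transcription, stood at 95.1, 57.6 and 80.5 CPM in the controls and 377, 316 and 296 CPM with overexpression (4.24-fold higher, log2 fold change 2.08, SE 0.25, adjusted p = 0.0177). SRSF6, an SR protein, stood at 107, 64.6 and 98.4 CPM in the controls and 251, 279.7 and 268 CPM with overexpression (2.96-fold higher, log2 fold change 1.57, SE 0.24, adjusted p = 0.0304). LUC7L3, a U1 snRNP-associated protein, stood at 43.6, 26.9 and 64.6 CPM in the controls and 165, 145 and 145 CPM with overexpression (3.37-fold higher, log2 fold change 1.75, SE 0.31, adjusted p = 0.0429). RBM25, a regulator of alternative splicing, stood at 49.7, 26.6 and 58.6 CPM in the controls and 139, 135 and 149.5 CPM with overexpression (3.14-fold higher, log2 fold change 1.65, SE 0.30, adjusted p = 0.0437). Control replicate 2 was the lowest library in each of these 4 genes. Without it, 11 rose and 0 fell, against 5.14% and 3.12% of all genes, and the median was 0.80. Once the length and GC trend was taken out, 8 rose and 0 fell, against 3.95% and 4.03% of all genes, and the median was 0.39.

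Other genes of nuclear RNA handling, outside that list and named after their values were seen unless the rule named them, showed similar values. CCNL1, a cyclin that binds splicing kinases and was named by the rule, stood at 32.4, 25.6 and 38.4 CPM in the controls and 145, 189.9 and 222 CPM with overexpression (5.79-fold higher, log2 fold change 2.53, SE 0.26, adjusted p = 0.0109). PNN, a splicing factor of nuclear speckles, stood at 79.6, 48.1 and 107 CPM in the controls and 312, 287 and 262 CPM with overexpression (3.66-fold higher, log2 fold change 1.87, SE 0.30, adjusted p = 0.0335). SRRM2, a scaffold of nuclear speckles, stood at 453, 479 and 413 CPM in the controls and 1286, 1263 and 1098 CPM with overexpression (2.71-fold higher, log2 fold change 1.44, SE 0.19, adjusted p = 0.0207). In all 3 the overexpression libraries were more than 2-fold above every control. CPSF6, a subunit of the cleavage factor that sets polyadenylation sites, stood at 65.7, 47.0 and 45.9 CPM in the controls and 151, 132 and 119.5 CPM with overexpression (adjusted p = 0.0396).

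A pair of nuclear long non-coding RNAs rose. Of 7 long non-coding RNAs tested, most of them nuclear, 2 rose and 0 fell (median log2 fold change 1.07), against 0.935% and 0.196% of all genes. NEAT1, the scaffold RNA of paraspeckles, stood at 147, 183 and 184 CPM in the controls and 738, 441 and 578 CPM with overexpression (3.42-fold higher, log2 fold change 1.77, SE 0.25, adjusted p = 0.0207). MALAT1, an RNA of nuclear speckles, stood at 90.7, 108 and 131 CPM in the controls and 246, 306 and 320.4 CPM with overexpression (2.65-fold higher, log2 fold change 1.41, SE 0.23, adjusted p = 0.0341). Both calls were lost once the length and GC trend was taken out (adjusted p = 0.122 and 0.366). TUG1 stood at 93.1, 44.3 and 109 CPM in the controls and 198, 217 and 217 CPM with overexpression and NORAD at 330.1, 87.1 and 263 CPM in the controls and 379.5, 401 and 455 CPM with overexpression. Both had separate groups without passing, and control replicate 2 was again the lowest library in each.

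Several transcripts from within or beside other genes were among the largest rises. N4BP2L2-IT2, annotated inside an intron of N4BP2L2, stood at 1.51, 0.589 and 1.84 CPM in the controls and 7.96, 10.95 and 11.7 CPM with overexpression (7.77-fold higher, log2 fold change 2.93, SE 0.40, adjusted p = 0.0207), and the host gene N4BP2L2 at 36.1, 16.6 and 41.4 CPM in the controls and 58.4, 67.1 and 78.5 CPM with overexpression (adjusted p = 0.0934). GABPB1-AS1, antisense to GABPB1, stood at 3.91, 1.69 and 2.35 CPM in the controls and 11.97, 15.1 and 32.7 CPM with overexpression (7.51-fold higher, log2 fold change 2.89, SE 0.47, adjusted p = 0.0341), while GABPB1 stood at 36.5, 23.9 and 34.5 CPM in the controls and 32.6, 43.1 and 40.0 CPM with overexpression with overlapping groups. The strand setting of the counting is not given in the sources used here, so reads of such partners cannot be told apart. LINC00342, a long intergenic RNA, stood at 1.23, 1.03 and 0.572 CPM in the controls and 10.2, 7.43 and 5.52 CPM with overexpression (8.17-fold higher, log2 fold change 3.02, SE 0.39, adjusted p = 0.0202). NPIPB14P, a member of a family of near-identical copies on chromosome 16 whose reads the counting could split, stood at 2.51, 1.25 and 0.827 CPM in the controls and 7.96, 10.3 and 10.5 CPM with overexpression (6.25-fold higher, log2 fold change 2.62, SE 0.40, adjusted p = 0.0304). ZNF778, a zinc-finger gene, stood at 0.782, 0.884 and 2.74 CPM in the controls and 10.3, 8.16 and 9.005 CPM with overexpression (6.25-fold higher, log2 fold change 2.64, SE 0.46, adjusted p = 0.0409). By annotation class, 6 of 89 sense-intronic transcripts rose and 0 fell (median log2 fold change 0.83), 15 of 236 transcribed unprocessed pseudogenes rose and 0 fell (0.35), and 79 of 13058 protein-coding genes rose and 26 fell (-0.01). Not every such class lay higher: 5 of 610 antisense transcripts rose and 0 fell (-0.06), and 4 of 703 processed pseudogenes rose and 0 fell (-0.06). The shares over all genes tested were 0.935% higher and 0.196% lower.

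These differences moved together with transcript length. Genes called higher had a median transcript length of 4488.5 bases, genes called lower 2309 and all genes tested 3252. Median GC content was 45.3%, 56.1% and 48.7% in the same order. Over 4 classes of equal size from the shortest to the longest genes, the median log2 fold change was -0.34, -0.17, 0.07 and 0.38, and without control replicate 2 it was -0.23, -0.09, 0.06 and 0.24. Among 30 long genes chosen for their size, 0 passed with edgeR, and the median was 0.78 (0.46 without control replicate 2, 0.34 with the trend removed). Of these 30, 13 had an unadjusted p under 0.05 (4242 of 15833 over all genes), and 6 were higher with DESeq2 (6.56% of all genes). Once the trend was taken out, 44 of the 47 named calls passed.

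Host transcripts of microRNAs were looked at after their values were seen. Of 18 tested, 3 rose and 0 fell (median log2 fold change 0.92), against 0.935% and 0.196% of all genes. MIR22HG stood at 1.12, 0.589 and 1.21 CPM in the controls and 4.97, 6.60 and 9.06 CPM with overexpression (7.08-fold higher, log2 fold change 2.80, SE 0.38, adjusted p = 0.0207). MIR34AHG, whose microRNA is a p53 target, stood at 4.19, 6.33 and 3.82 CPM in the controls and 14.1, 18.1 and 14.7 CPM with overexpression (3.27-fold higher, log2 fold change 1.71, SE 0.28, adjusted p = 0.0363). MIR17HG, which holds a cluster of growth-promoting microRNAs, stood at 0.391, 0.0737 and 0.254 CPM in the controls and 1.83, 1.71 and 1.80 CPM with overexpression (7.43-fold higher, log2 fold change 2.80, SE 0.49, adjusted p = 0.0409). It was the faintest of the 3, with 7, 1 and 4 counts in the controls. The mature microRNAs of these hosts are shown, with the seed (bases 2 to 8) in capitals (RefSeq, GRCh38.p14, minus strand of chr17:1713914-1713935 for miR-22-3p and of chr1:9151735-9151756 for miR-34a-5p, plus strand of chr13:91350618-91350640 for miR-17-5p and of chr13:91351072-91351094 for miR-20a-5p).
miR-22-3p: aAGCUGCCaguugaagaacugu
miR-34a-5p: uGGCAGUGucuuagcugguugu
miR-17-5p: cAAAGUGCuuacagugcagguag
miR-20a-5p: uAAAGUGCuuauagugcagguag
The last pair, both from MIR17HG, share 1 seed. The table counts the long host transcripts, and the levels of the mature microRNAs were not measured.

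Ribosomal protein genes lay lower with overexpression, though few passed the test. Of 63 cytosolic ribosomal proteins, 0 rose, 3 fell and 60 did not pass, with a median log2 fold change of -0.90, and in 55 of 63 every overexpression library lay below every control (18.7% of all genes tested did so). Among all genes, 0.935% rose and 0.196% fell in the test. RPS18 stood at 2095, 2487 and 2243 CPM in the controls and 1070.3, 1184 and 966 CPM with overexpression (2.12-fold lower, log2 fold change -1.08, SE 0.19, adjusted p = 0.0388). RPL35 stood at 517, 859 and 674 CPM in the controls and 287, 280.0 and 295 CPM with overexpression (2.38-fold lower, log2 fold change -1.25, SE 0.23, adjusted p = 0.0443). RPL12 stood at 1159.7, 1739.6 and 1261 CPM in the controls and 578, 623 and 688 CPM with overexpression (2.20-fold lower, log2 fold change -1.14, SE 0.22, adjusted p = 0.0487). The summed level of the list was 47842, 70229.9 and 55204 CPM in the controls and 29588, 29749 and 32581 CPM with overexpression. Control replicate 2 was the highest library in that sum, and the groups did not overlap with or without it. Without control replicate 2, 0 rose and 40 fell, against 5.14% and 3.12% of all genes, and the median was -0.72. RPL21 was the 1 member with a positive log2 fold change, at 29.2, 36.8 and 38.9 CPM in the controls and 40.9, 37.0 and 43.7 CPM with overexpression.

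Host genes of small nucleolar RNAs, which like ribosomal protein genes carry a terminal oligopyrimidine tract in many cases, mostly lay lower too. Of 16 tested, 1 fell and 0 rose (median -0.88), and without control replicate 2, 7 fell and 1 rose (median -0.79). Among all genes, 0.196% fell and 0.935% rose with all 6 libraries, and 3.12% and 5.14% without control replicate 2. SNHG29 stood at 1014, 1172 and 1360.4 CPM in the controls and 381, 513 and 549 CPM with overexpression (2.46-fold lower, log2 fold change -1.30, SE 0.22, adjusted p = 0.0388). GAS5, a growth-arrest RNA, stood at 309.5, 325 and 566 CPM in the controls and 137, 195 and 224 CPM with overexpression (adjusted p = 0.0774), and its groups did not overlap. SNHG3, at 37.5, 52.9 and 32.4 CPM in the controls and 95.3, 84.1 and 84.7 CPM with overexpression, was the 1 member of the 16 that lay above all controls in every overexpression library. SNHG4, a host gene outside the list and named after its values were seen, rose, at 6.76, 4.71 and 6.17 CPM in the controls and 23.1, 19.7 and 15.4 CPM with overexpression (3.30-fold higher, log2 fold change 1.72, SE 0.27, adjusted p = 0.0329). Nuclear genes of oxidative phosphorylation had a median of -0.62 with 0 of 56 past the threshold of the edgeR test. An unadjusted p under 0.05 was found in 28 (4242 of 15833 over all genes), and 8 were lower with DESeq2 (5.03% of all genes). In 33 of 56 every overexpression library lay below every control (18.7% of all genes). Without control replicate 2 their median was -0.35, with 5 that fell (3.12% of all genes did so).

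Some hypoxia and glycolysis genes fell. Of 33 tested, 0 rose and 3 fell, with a median log2 fold change of -0.66, and in 17 every overexpression library lay below every control (18.7% of all genes). The shares of all genes called were 0.935% higher and 0.196% lower. SLC2A1, the glucose transporter GLUT1, stood at 583, 774 and 462 CPM in the controls and 194, 281 and 228 CPM with overexpression (2.58-fold lower, log2 fold change -1.37, SE 0.25, adjusted p = 0.0446). ALDOC, a glycolytic aldolase, stood at 146, 221 and 155 CPM in the controls and 67.7, 70.4 and 73.0 CPM with overexpression (2.47-fold lower, log2 fold change -1.31, SE 0.23, adjusted p = 0.0409). BNIP3, a mitophagy receptor induced by HIF1, stood at 249, 194 and 233 CPM in the controls and 89.0, 99.6 and 109.6 CPM with overexpression (2.27-fold lower, log2 fold change -1.18, SE 0.21, adjusted p = 0.0409). In all 3 every overexpression library lay below every control. CA9, a carbonic anhydrase and textbook HIF1 target, stood at 44.7, 48.4 and 26.8 CPM in the controls and 9.59, 14.2 and 18.7 CPM with overexpression (adjusted p = 0.0547), and DDIT4, an inhibitor of mTORC1, at 917, 1852 and 1053 CPM in the controls and 228, 463 and 486 CPM with overexpression (adjusted p = 0.0531). VEGFA, the angiogenic growth factor, stood at 561, 606 and 636 CPM in the controls and 351, 783 and 634 CPM with overexpression, and LDHA, lactate dehydrogenase, at 898, 748 and 608 CPM in the controls and 719, 583 and 753 CPM with overexpression. For VEGFA and LDHA the groups overlapped. Without control replicate 2, 0 rose and 9 fell (median -0.62), against 5.14% and 3.12% of all genes.

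The largest single falls lay outside these lists. ISY1-RAB43, a read-through of a pair of neighbouring genes on chromosome 3, stood at 7.09, 23.8 and 20.9 CPM in the controls and 0, 0 and 0 CPM with overexpression. Against the level that 3 counts over the overexpression group would give, this was at least 333-fold lower (adjusted p = 0.0160). The separate gene ISY1 stood at 34.5, 34.9 and 19.8 CPM in the controls and 41.1, 35.4 and 40.8 CPM with overexpression, and RAB43 at 14.02, 5.97 and 17.7 CPM in the controls and 11.4, 13.5 and 19.9 CPM with overexpression. Neither passed the threshold, and how reads were shared among the 3 entries is not given in the sources used here. ZNF696, a zinc-finger gene on chromosome 8, stood at 12.8, 13.3 and 8.97 CPM in the controls and 1.12, 1.56 and 1.41 CPM with overexpression (8.57-fold lower, log2 fold change -3.09, SE 0.30, adjusted p = 0.0109). Of 425 tested genes with a ZNF symbol, 1 fell and 4 rose, the latter being ZNF165, ZNF778, ZNF354B and ZNF107 (median of all 425, 0.23). The 4 include the overexpressed gene itself. Of all genes tested, 0.935% rose, 0.196% fell and 1.13% passed in either direction, so no response of zinc-finger genes as a class is read from these calls.

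The other falls named by the rule were smaller. NUPR1, a stress-induced chromatin regulator, stood at 66.0, 117 and 110.2 CPM in the controls and 16.7, 33.7 and 34.4 CPM with overexpression (3.46-fold lower, log2 fold change -1.79, SE 0.34, adjusted p = 0.0489). CIPC, an inhibitor of the circadian factor CLOCK, stood at 15.5, 10.7 and 19.8 CPM in the controls and 5.99, 5.04 and 3.71 CPM with overexpression (3.12-fold lower, log2 fold change -1.64, SE 0.31, adjusted p = 0.0489). HJURP, the chaperone that loads the centromeric histone CENP-A, stood at 79.0, 74.1 and 90.1 CPM in the controls and 29.1, 26.5 and 33.8 CPM with overexpression (2.72-fold lower, log2 fold change -1.44, SE 0.22, adjusted p = 0.0282). SDHAF4, an assembly factor of succinate dehydrogenase, stood at 19.5, 21.1 and 19.7 CPM in the controls and 7.20, 6.21 and 8.61 CPM with overexpression (2.74-fold lower, log2 fold change -1.45, SE 0.24, adjusted p = 0.0342). The groups were apart in each, and HJURP and SDHAF4 had little spread in either group. NT5M, LINC02387, SELENOM, SERPINF1 and TSTD1 fell 2.53-fold to 3.01-fold. CTNND1, which encodes p120 catenin, stood at 589, 494 and 422 CPM in the controls and 232, 219.6 and 239 CPM with overexpression (2.18-fold lower, log2 fold change -1.13, SE 0.20, adjusted p = 0.0443) and was the 1 of 23 adhesion genes past the edgeR threshold (with DESeq2, 4 were higher and 1 was lower). Over all genes, 1.13% passed with edgeR, and with DESeq2 6.56% were higher and 5.03% lower. CTNND1 overlaps a read-through of its neighbour TMX2, so its count may depend on how such reads were assigned.

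Genes of immune recognition were examined because the series title names ZNF165 as a possible target of immunotherapy. Of 19 genes of MHC class I presentation 0 passed the edgeR test and 10 had an unadjusted p under 0.05. With DESeq2, 1 was higher and 4 were lower (6.56% and 5.03% of all genes). The list median was -0.48, and in 10 genes every overexpression library lay below every control (18.7% of all genes). Over all genes tested, 4242 of 15833 had an unadjusted p under 0.05. B2M, which encodes beta-2-microglobulin, stood at 472, 362 and 443 CPM in the controls and 275, 274 and 104 CPM with overexpression (log2 fold change -0.97, adjusted p = 0.134). The low value of overexpression replicate 3 widened its spread. PSMB9, a subunit of the immunoproteasome, stood at 19.5, 28.9 and 22.3 CPM in the controls and 14.6, 11.9 and 12.7 CPM with overexpression, and NLRC5, the transactivator of class I genes, at 10.3, 11.05 and 11.1 CPM in the controls and 19.9, 19.7 and 19.2 CPM with overexpression. NLRC5 lay above all controls in every overexpression library, opposite to the list median, without passing.

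Interferon-stimulated genes had a median of 0.10 with 0 of 36 past the threshold of the edgeR test and 12 at an unadjusted p under 0.05. With DESeq2, 1 was higher and 2 were lower. For this list and those below, the count over all genes at an unadjusted p under 0.05 was 4242 of 15833. The DESeq2 shares over all genes were 6.56% higher and 5.03% lower. IRF1, a transcription factor of the interferon pathway, stood at 60.0, 98.3 and 64.7 CPM in the controls and 46.5, 45.7 and 49.5 CPM with overexpression, with every overexpression library below every control (adjusted p = 0.141). Immune checkpoint ligands had a median of 0.02 with 0 of 12 past the edgeR threshold, 1 at an unadjusted p under 0.05 and 1 lower with DESeq2. CD274, which encodes PD-L1, stood at 0.949, 0 and 1.21 CPM in the controls and 0.913, 0.88 and 1.35 CPM with overexpression, with 17, 0 and 19 counts in the controls and 18, 18 and 24 with overexpression. Chemokines and cytokines had a median of -0.07 with 0 of 14 past the edgeR threshold, 7 at an unadjusted p under 0.05, and with DESeq2 3 higher and 1 lower. LIF, a cytokine of the IL-6 family, stood at 171, 329 and 188 CPM in the controls and 495, 388 and 482 CPM with overexpression (adjusted p = 0.0837) and passed without control replicate 2 (log2 fold change 1.34, adjusted p = 0.00863). CXCL10 and HLA-DRA did not reach the count needed for a test.

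**Figure D5:**
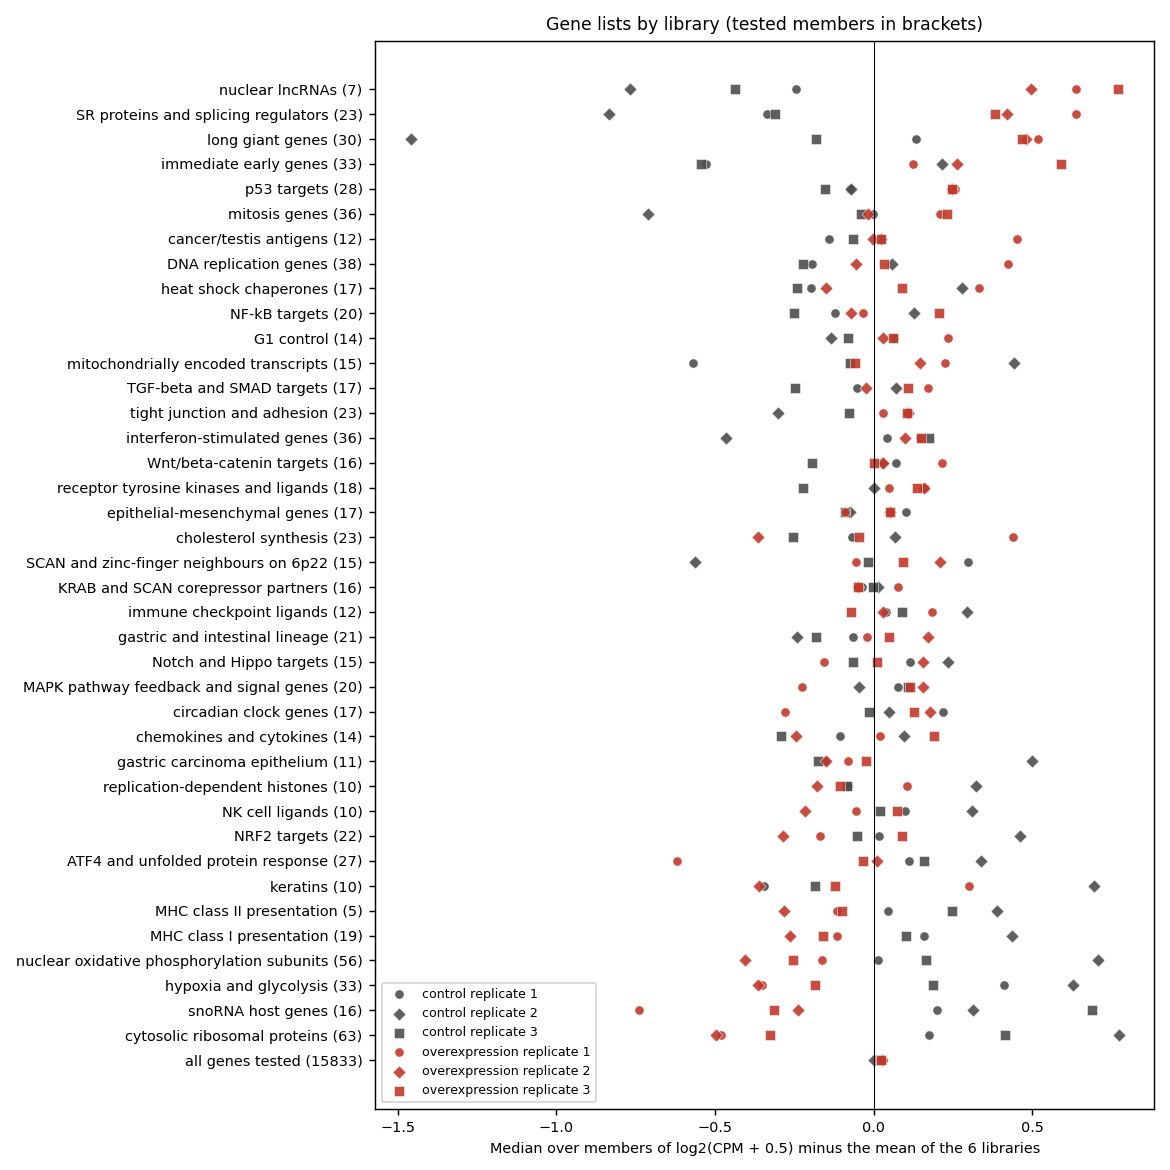
Median over the tested members of each gene list of log2(CPM + 0.5) minus the mean of the 6 libraries, for each control (grey) and overexpression library (red); symbols mark the replicate number. Ribosomal proteins, snoRNA hosts and hypoxia genes have all controls to the right of all overexpression libraries, splicing regulators and nuclear lncRNAs the reverse, and control replicate 2 (grey diamonds) is often the farthest point.

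The overexpression was set beside the knockdown in MKN28, which shares no library with it but differs in cell line, so line and direction of the ZNF165 change cannot be told apart. The descriptions of 2 knockdown libraries name other genes in place of ZNF165, and their genotype field was followed. In the knockdown 6092 of 14939 genes passed (40.8%), 2864 of them higher and 3228 lower. Of the 179 genes called with overexpression, 141 were tested there, 69 passed in both with opposite directions (60 of them higher with overexpression and lower in the knockdown) and 9 passed in both with the same direction. How directions split over all genes tested in both comparisons was not counted. The 69 and 9 are therefore not read as a mirrored response to ZNF165. The test of the difference between the comparisons passed for 139 of the 179, against 42.9% of 17266 genes; the 179 were chosen on one arm of that contrast, so nothing is read from this count.

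The direction in the knockdown varied among named genes. CENPE, EGR3, RPL35, CDKN1A and MIR22HG were all called on the overexpression arm of that contrast. Nothing is therefore read from their p-values for the difference, which are printed as a description. CENPE, a mitotic kinesin, had log2 fold changes of 2.53 with overexpression and -4.32 in the knockdown (test of the difference, adjusted p = 0.000299). EGR3 had 2.80 and -3.13 (0.000346), and RPL35 -1.25 and 3.99 (0.000455). CDKN1A and MIR22HG were higher in both, with 1.17 and 2.78 for CDKN1A (0.0393) and 2.80 and 2.94 for MIR22HG (0.846). The 30 long genes had a median log2 fold change of 0.78 with overexpression and -3.87 in the knockdown, and the 63 ribosomal protein genes -0.90 and 1.98. The part of these shifts in the opposite calls was not tested.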

How the data were processed

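RNA-seq counts per Ensembl gene were taken from the deposited table of the authors, 1 column per library. HISAT2 and StringTie are named in the submitters' processing notes, without versions. How reads were counted, on which build, annotation and strand setting, is not given in the sources used here. Of 50868 identifiers, 36020 had a symbol and 50111 were in GENCODE 29, which gave coordinates, length and GC content. Totals were 15333499 to 19548445 counts per library. The 6 MKN45 libraries were fitted with edgeR 4.0.16 (R 4.3.3; quasi-likelihood test, TMM factors, filterByExpr with minimum count 10 and minimum total 15), with Benjamini-Hochberg adjustment over all 15833 genes tested and a threshold of 0.05. Alternatives were other scalings and filters, DESeq2 1.42.0 (R), limma 3.58.1 voom with quality weights, each library left out, a replicate block, removal of a length and GC trend (splines with 5 degrees of freedom) and all 12 libraries in 1 fit. The procedure was checked on simulated counts with 200 changed genes. The edgeR fit of all 6 libraries recovered 18% of 2-fold and 98% of 4-fold changes, and 3.33% of its calls were false. A gene that did not pass may thus still have changed 2-fold. The simulation held no library set apart like control replicate 2, so it does not check the fits for that.

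Named genes are ZNF165 and a list of single genes, the 12 rises and 12 falls of largest fitted log2 fold change (at least 1) among calls with separate groups, a symbol and at least 5 CPM in the higher group, up to 6 called members of each of 43 lists (or the 2 most abundant where none passed), and the 8 genes of at least 20 CPM highest and lowest in control replicate 2. Other genes were named after their values were seen, and some genes named by the rule are not reported here. Members, lists and tests were chosen with earlier results of these data known.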

Additional observations from a re-analysis of the deposited data

How the results depend on the processing

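Counts of genes past the threshold depended on the fit. In total, higher and lower, they were 1834, 1038 and 796 with DESeq2, 2460, 1413 and 1047 with limma voom and sample quality weights (0.168 for control replicate 2), 722, 485 and 237 without a filter on low counts, 1263, 625 and 638 once the length and GC trend was taken out, and 3, 3 and 0 with all 12 libraries in 1 edgeR fit (1655 at an unadjusted p under 0.05), in which MKN28 libraries shared the estimate of spread. With library totals the lower count was 17. DESeq2, voom and the fit without a filter included all 179 genes. With 1 library left out, the counts ranged from 1 to 1338 in total, 1 to 832 higher and 0 to 506 lower, and the log2 fold change of ZNF165 from 2.88 to 3.45. The replicate block gave 8 calls, 5 higher and 3 lower. Replicate numbers gave no sign of pairing: same-numbered deviations correlated at -0.055, -0.055 and 0.087, and other-numbered ones at -0.161 to 0.150. The deviations were taken from the mean of only 3 libraries per group, so this check cannot exclude a pairing. No named gene that passed changed direction in any alternative. Differences that had not passed did in places: HSPA1A went from -3.24 to 0.93 without control replicate 2, and the list median ranged from -0.31 to 0.37 for chemokines, -0.07 to 0.29 for interferon-stimulated genes, -0.08 to 0.25 for TGF-beta, -0.22 to 0.18 for Notch and Hippo and -0.04 to 0.20 for Wnt targets. Over all alternatives, the list median stayed between 0.51 and 1.07 for immediate early genes, 0.39 and 1.02 for splicing regulators, -1.02 and -0.72 for ribosomal proteins and -0.75 and -0.52 for hypoxia genes. The cause of the changes was not tested.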

Other observations

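Mitosis genes included a pair of large rises. Of 36 tested, 2 rose and 0 fell with edgeR (median log2 fold change 0.25), and 6 were higher with DESeq2, as with edgeR without control replicate 2. CENPE stood at 16.9, 6.41 and 21.6 CPM in the controls and 90.3, 76.7 and 93.1 CPM with overexpression (5.79-fold higher, log2 fold change 2.53, SE 0.40, adjusted p = 0.0335), and ASPM, a spindle pole protein, at 27.5, 9.65 and 27.5 CPM in the controls and 102, 79.6 and 90.0 CPM with overexpression (4.20-fold higher, log2 fold change 2.07, SE 0.38, adjusted p = 0.0446). Control replicate 2 was the lowest library in both, and both encode very long transcripts. HJURP, which acts at the same centromeres as CENPE, fell. Genes of DNA replication had a median of 0.25, and 0 of 38 passed the edgeR test (11 at an unadjusted p under 0.05, 4 higher with DESeq2). Among all 15833 genes tested, 4242 had an unadjusted p under 0.05, and 6.56% were higher with DESeq2. With edgeR, 0.935% of all genes were higher with all 6 libraries and 5.14% without control replicate 2.

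Among genes of gastric and intestinal lineage, MUC5AC, the secreted mucin of the gastric surface, stood at 44.7, 63.3 and 40.5 CPM in the controls and 96.8, 155 and 151 CPM with overexpression (2.71-fold higher, log2 fold change 1.44, SE 0.28, adjusted p = 0.0489). It was the 1 of 21 tested that passed with edgeR (with DESeq2, 4 were higher and 2 lower), and TFF1 and TFF2, trefoil peptides of the same surface cells, did not pass. Over all genes, 1.13% passed with edgeR, and with DESeq2 6.56% were higher and 5.03% lower. TFF1 stood at 2.35, 2.87 and 1.59 CPM in the controls and 3.15, 2.54 and 4.61 CPM with overexpression, and TFF2 at 0.391, 1.33 and 0.445 CPM in the controls and 0.609, 1.17 and 1.58 CPM with overexpression. BMP5, a secreted signal of the TGF-beta family, stood at 4.13, 1.99 and 4.33 CPM in the controls and 18.3, 12.1 and 15.5 CPM with overexpression (4.40-fold higher, log2 fold change 2.13, SE 0.34, adjusted p = 0.0341), and SLC6A14, an amino acid transporter, at 27.7, 15.2 and 12.8 CPM in the controls and 76.9, 59.7 and 60.0 CPM with overexpression (3.53-fold higher, log2 fold change 1.82, SE 0.32, adjusted p = 0.0409). ASS1, an enzyme of arginine synthesis, stood at 151, 203 and 167 CPM in the controls and 51.1, 83.6 and 73.1 CPM with overexpression (2.51-fold lower, log2 fold change -1.33, SE 0.25, adjusted p = 0.0471), and RAP1GAP, which switches off the small GTPase RAP1, at 161, 180.3 and 168 CPM in the controls and 62.9, 84.2 and 78.1 CPM with overexpression (2.26-fold lower, log2 fold change -1.18, SE 0.21, adjusted p = 0.0416). BMP5, SLC6A14, ASS1 and RAP1GAP were named after their values were seen.

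Among 27 genes of the ATF4 and unfolded protein response, 0 passed the edgeR test, 7 had an unadjusted p under 0.05, and with DESeq2 1 was higher and 4 were lower (median log2 fold change -0.25). ASNS, asparagine synthetase and a target of ATF4, stood at 437, 435 and 456 CPM in the controls and 119.8, 314 and 296 CPM with overexpression (adjusted p = 0.148). All overexpression libraries lay below all controls, with replicate 1 lowest. HSPA5, the chaperone of the endoplasmic reticulum, stood at 1415, 1518 and 1506 CPM in the controls and 1268, 1119 and 1315 CPM with overexpression. Of 22 NRF2 targets 0 passed the edgeR test, 6 had an unadjusted p under 0.05 and 2 were lower with DESeq2 (median -0.24). Beside both lists, 4242 of all 15833 genes tested had an unadjusted p under 0.05. With DESeq2, 6.56% of all genes were higher and 5.03% lower.

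Among heat shock chaperones, the members high in control replicate 2 and those with all overexpression libraries above all controls were different genes. HSP90AA1, the inducible cytosolic HSP90, stood at 824, 434 and 718 CPM in the controls and 1971, 1109.6 and 1408 CPM with overexpression (adjusted p = 0.0704), and HSPH1, a nucleotide exchange factor of HSP70, at 82.5, 65.0 and 70.4 CPM in the controls and 262, 135 and 155 CPM with overexpression (adjusted p = 0.0531). In both, control replicate 2 was the lowest library, and overexpression replicate 1 the highest. Of 17 chaperones 0 passed the edgeR test and 9 had an unadjusted p under 0.05 (4242 of 15833 over all genes). With DESeq2, 3 were higher and 1 was lower (6.56% and 5.03% of all genes).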
